A study of Sus scrofa with 28 samples.

Results

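The day 3 infarct zone of rhAgrin-treated pigs was compared with the day 3 infarct zone of saline-treated pigs, which took in 7 of the 28 libraries of the series. The members were defined by their labels, with earlier results of these data known. They were the infarct samples of the 4 animals given agrin (animals 570, 572, 576 and 577) and of the 3 animals given the control (animals 571, 573 and 575). All were wild-type Landrace pigs of either sex, 3 months old, in which a balloon closed the left anterior descending coronary artery for 60 min. At the onset of reperfusion the treated animals received recombinant human agrin (rhAgrin) at 33 µg per kg in saline into the coronary artery, and the controls received the vehicle alone, which the sample labels call PBS and which is called saline here. Hearts were collected on day 3, and polyadenylated RNA of dissected, frozen left ventricular pieces was sequenced in bulk. The labels call the infarct samples injured zone and the remote samples healthy. Each library came from 1 animal, and each animal also gave a remote-zone library, which is used below only as a reference. The infarct column of animal 577 carries the letter B in place of I in its name, with no explanation in the labels, so its values are also given with that animal left out where it moves a result. Levels are given as CPM, counts scaled to the same library total, and 7 values in a row are in the order 570, 572, 576, 577 for rhAgrin and 571, 573, 575 for saline.

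Agrin is a large heparan sulfate proteoglycan of the extracellular matrix. It is best known for organizing the neuromuscular junction through its receptor LRP4, and in the heart it binds dystroglycan, the link between the matrix and the dystrophin complex of muscle cells, whose disassembly can release the coactivator YAP. In the first days after reperfusion an infarct loses cardiomyocytes and fills with neutrophils, monocytes and macrophages, while fibroblasts proliferate and begin to turn into matrix-producing myofibroblasts. The comparison asks how the transcripts of this early infarct differ when agrin protein was given at reperfusion. The injected agent is a protein and adds no pig transcript of its own.

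The 7 infarct libraries held 18.37 to 22.13 M counts, so that a count of 0 in a library allowed up to 0.163 CPM at the shallowest (3 counts), a limit that covers counting error only. They stood apart from the remote libraries as their label says. SPP1, which encodes the secreted glycoprotein osteopontin, was at 5684 to 27335 CPM in infarct and 3.33 to 16.1 CPM in remote libraries, MYH7, the slow cardiac myosin heavy chain, was at 2157 to 13529 CPM against 26944 to 33673 CPM, and transcripts of the mitochondrial genome took 5.783 to 10.56% of infarct counts against 29.13 to 34.07% of remote counts. The treatment groups did not separate by overall similarity. The closest pair of infarct libraries was animal 572 (rhAgrin) with animal 573 (saline), with a correlation of log2 CPM over 14307 genes of 0.9879, and the nearest neighbor of each of the 7 libraries was in the other treatment group. One mismatch concerned animal 573. The Y-linked genes ZFY, KDM5D and EIF1AY had 328, 173 and 232 counts in its infarct library. Each had 0 counts in its remote library, while the other 6 animals had these genes in both zones or in neither. Several of the results below are therefore also given without animal 573.

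No gene was called between rhAgrin and saline in the day 3 infarct zone. A call needed an adjusted p (Benjamini-Hochberg) under 0.05, at least a 2-fold change and a highest count above 30. By this rule edgeR called 0 of 14307 genes tested (0%), with a smallest adjusted p of 0.9999. At an unadjusted p under 0.05 there were 218 genes (1.52%), 132 higher and 86 lower with rhAgrin (0.923% and 0.601%). limma voom called 0 genes and had 241 at an unadjusted p under 0.05. DESeq2 called 1 gene, SLPI, and had 307 of 17569 genes (1.75%) at an unadjusted p under 0.05. If no gene differed, evenly spread p-values would put a share of 0.05 of genes there on average. The edgeR and DESeq2 shares are below that.

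The width of the intervals shows which differences the 7 libraries could bear. The 95% interval of the fitted log2 fold change lay within 2-fold in either direction for 11175 genes (78.1%), and for 8666 of the 9400 genes (92.2%) with a mean of at least 10 CPM. It lay within 4-fold for 13819 genes (96.6%). The median log2 fold change of all genes was 0.01. Over all libraries, 357 of 13226 genes with a highest count above 30 (2.7%) had groups that did not overlap, 167 higher (1.26%) and 190 lower (1.44%) with rhAgrin. For a single gene, the smallest two-sided p that an exact permutation of 4 against 3 libraries can give is 0.0571. Without animal 573, edgeR again called 0 genes and 733 genes (5.05%) were at an unadjusted p under 0.05, of which 136 were among the 218 of all 7 libraries. That share is close to the 0.05 that evenly spread p-values give on average.

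**Figure D1:**
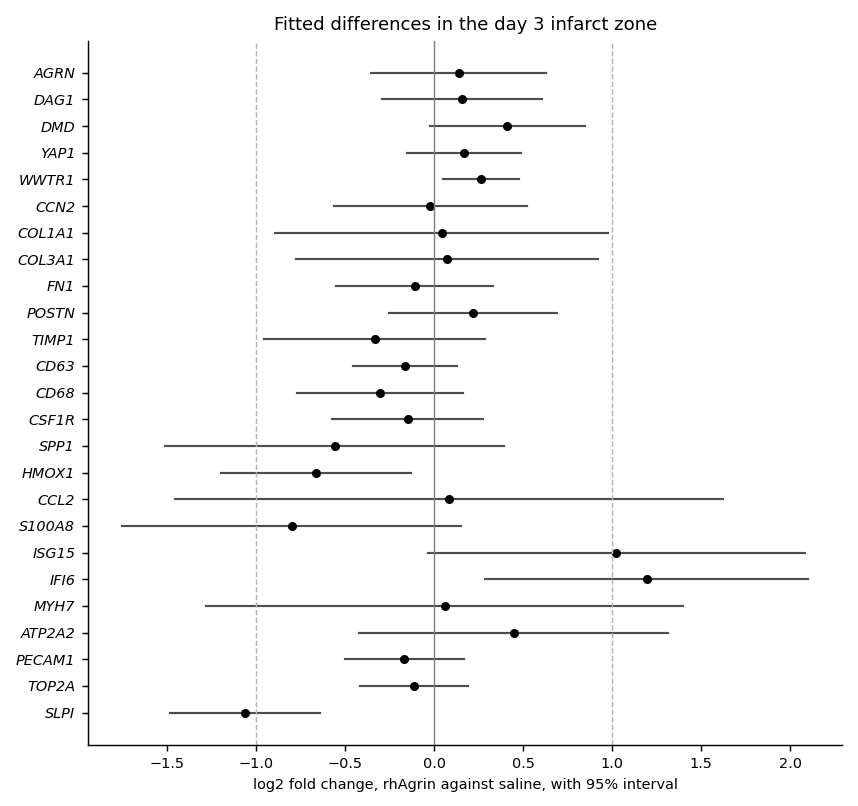
Fitted log2 fold change (rhAgrin against saline, edgeR, n = 4 and 3) with its 95% interval for 25 genes of the infarct. Dashed lines mark 2-fold, and the intervals of WWTR1, HMOX1, IFI6 and SLPI are the ones that leave out 0.

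SLPI, secretory leukocyte peptidase inhibitor, an inhibitor of neutrophil elastase, was the gene that DESeq2 called. Its level was 6.75, 5.24, 5.98 and 6.22 CPM in the rhAgrin infarcts and 14.01, 9.31 and 15.5 CPM in the saline infarcts. Every rhAgrin library was below every saline library, and the mean of 6.05 ± 0.628 CPM (SD, n = 4) compared with 12.9 ± 3.24 CPM (SD, n = 3). The log2 fold change was -1.06 ± 0.18 (SE) with a 95% interval of -1.49 to -0.64, at an adjusted p of 0.9999 in edgeR and 0.0170 in DESeq2. The remote zones spread wider, from 3.72 to 12.1 CPM in the rhAgrin animals and from 5.33 to 25.9 CPM in the saline animals. Against each animal's own remote zone the SLPI difference between treatments was -0.12 ± 0.49 on the log2 scale. The DESeq2 call of SLPI was kept without animal 570, 572 or 573, and was lost without animal 571, 575, 576 or 577. SLPI lies on chromosome 17 at 47595804-47598364, minus strand (RefSeq, Sscrofa11.1).

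**Figure D2:**
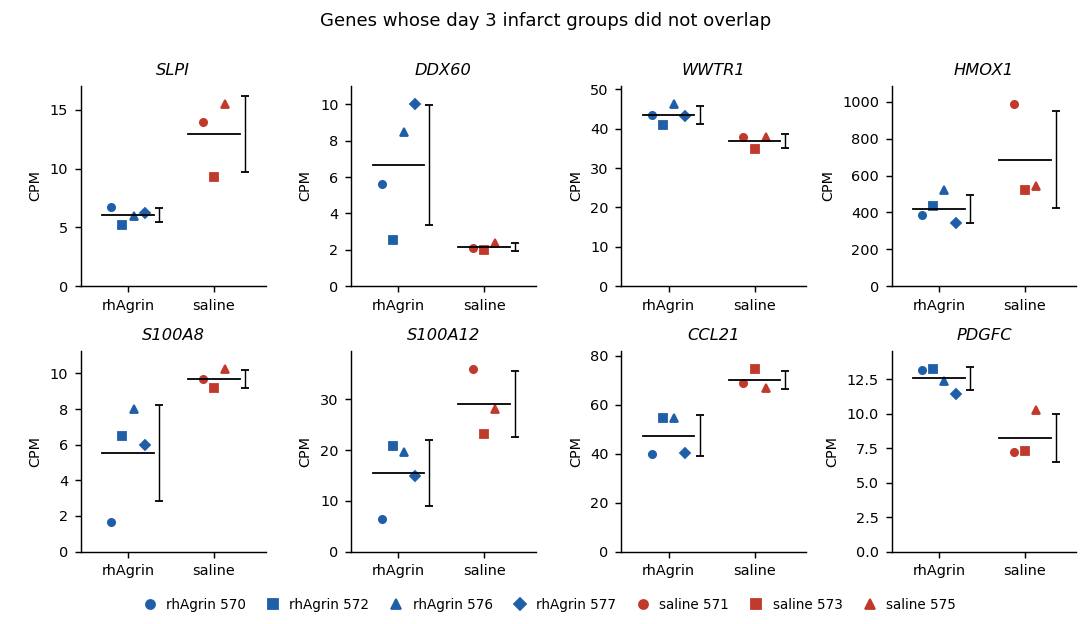
CPM of 8 genes whose day 3 infarct groups did not overlap, 1 point per animal (4 rhAgrin, 3 saline), with the group mean (line) and SD (bar). SLPI, HMOX1, S100A8, S100A12 and CCL21 were lower in each rhAgrin library than in each saline library, and DDX60, WWTR1 and PDGFC were higher.

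Agrin's own transcript and its receptors overlapped in level between the groups. AGRN was at 57.6, 76.6, 57.0 and 51.7 CPM with rhAgrin and 51.3, 69.0 and 47.3 CPM with saline, a log2 fold change of 0.14 ± 0.21 with an interval of -0.36 to 0.63. The groups overlapped, with animals 572 and 573 highest in their groups. DAG1, which encodes dystroglycan, was at 222, 234, 245 and 230 CPM with rhAgrin and at 157, 264 and 208 CPM with saline (log2 fold change 0.16 ± 0.20). LRP4 gave 0.01 ± 0.21. Dystrophin (DMD) gave 0.41 ± 0.19 with an interval of -0.03 to 0.85, and sarcospan (SSPN) 0.36 ± 0.21. Without animal 573 the log2 fold changes were 0.38 for AGRN, 0.42 for DAG1, -0.10 for LRP4, 0.52 for DMD and 0.58 for SSPN. None of these passed adjustment in edgeR. Of 19 genes of the dystroglycan and sarcoglycan complex tested, 0 were at an unadjusted p under 0.05 (1.52% of all genes), 15 estimates were above 0 and 15 intervals lay within 2-fold, with a median of 0.14. That median was 0.20 without animal 573 and 0.01 without animal 571. POMGNT1, a glycosyltransferase that builds the matrix-binding sugar of dystroglycan, was the member whose groups did not overlap, at 80.7 to 86.6 CPM with rhAgrin and 72.2 to 79.6 CPM with saline. Of all genes, 1.26% had groups that did not overlap in that direction.

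In the Hippo pathway, the kinase cascade that holds YAP out of the nucleus, the transcription coactivator gene WWTR1 (TAZ) and its DNA-binding partner TEAD1 had the smallest p-values. WWTR1 was at 43.4, 40.9, 46.3 and 43.3 CPM with rhAgrin and at 38.0, 34.7 and 38.0 CPM with saline. All 4 rhAgrin libraries were above all 3 saline libraries, by a log2 fold change of 0.26 ± 0.09. TEAD1 gave 0.44 ± 0.17 with overlapping groups, at 25.6 to 35.8 CPM against 17.2 to 28.0 CPM. YAP1 itself gave 0.17 ± 0.14. These 2 genes were the 2 of 16 core members at an unadjusted p under 0.05, both higher (0.923% of all genes), and neither passed adjustment (adjusted p = 0.9999 in edgeR for both). All 16 intervals lay within 2-fold and the median was 0.06. Genes that YAP and TEAD are known to activate held 0 of 17 at an unadjusted p under 0.05, with a median of 0.08. CCN2 was at 317, 274, 219 and 172 CPM against 302, 233 and 234 CPM, a log2 fold change of -0.02 ± 0.24. CCN1 (0.15 ± 0.40) and the cardiac stress gene ANKRD1 (0.42 ± 0.51) had wider intervals, and ANKRD1 was lowest in saline animal 571 at 292 CPM against 838 to 1824 CPM in the other 6 libraries. NT5E, the ectonucleotidase CD73, gave 0.64 ± 0.32 with overlapping groups.

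Matrix genes were at high level in both groups and differed more between animals than between treatments. COL1A1, a chain of type I collagen, was at 26560, 17945, 13895 and 10270 CPM with rhAgrin and at 15166, 23977 and 11757 CPM with saline. The rhAgrin group held both the highest and the lowest of the 7 values, and the log2 fold change was 0.04 ± 0.41 with an interval of -0.89 to 0.97. It was -0.29 without animal 570 and 0.45 without animal 573. COL3A1 gave 0.07 ± 0.37, fibronectin (FN1) -0.11 ± 0.19 and periostin (POSTN), a marker of activated fibroblasts, 0.22 ± 0.21. Of 31 collagen and matrix protein genes, 1 was at an unadjusted p under 0.05 (0.601% of all genes in that direction). It was COL15A1, a basement membrane collagen of vessels and muscle, at 246, 403, 477 and 413 CPM against 562, 466 and 567 CPM (log2 fold change -0.45 ± 0.19). The median of the 31 was 0.07, and it was -0.14 without animal 570 and 0.30 without animal 573. TNC, which encodes the injury matrix protein tenascin C, was at 2577 CPM in animal 570 and at 645 to 1247 CPM in the other 6 libraries.

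The myofibroblast signature of the study, derived from mouse cells, had 83 genes tested, of which 66 estimates were above 0 and 0 were at an unadjusted p under 0.05. Its median was 0.12, and 63 intervals lay within 2-fold. Animal 570 lay 0.51 above the mean of the 7 libraries on the log2 scale and animal 577 was at -0.35, both rhAgrin. The median went to -0.08 without animal 570 and to 0.265 without animal 573. Activated fibroblast genes had a median of 0.26, with 17 of 18 estimates above 0. That median was 0.02 without animal 570 and 0.46 without animal 573. ACTA2, smooth muscle actin of myofibroblasts, was at 1189 CPM in animal 570 and at 491 to 803 CPM in the others. The growth-factor-binding matrix gene LTBP2 gave 0.53 ± 0.24 with an interval of -0.02 to 1.08. In the lists of the study's 5 day 3 fibroblast archetypes, medians ranged from -0.02 to 0.08.

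TIMP1, a secreted inhibitor of metalloproteinases, was lower in point estimate with overlapping groups. It was at 370, 413, 802 and 455 CPM with rhAgrin and at 574, 552 and 827 CPM with saline, a log2 fold change of -0.34 ± 0.27 with an interval of -0.96 to 0.28. Animals 576 and 575 were the highest of their groups. Its receptors CD63 and APP gave -0.17 ± 0.13 and -0.01 ± 0.15. Among 18 matrix proteases and inhibitors tested, TIMP4 was 1 of 2 genes at an unadjusted p under 0.05 (1.52% of all genes), at 14.3 to 23.5 CPM with rhAgrin and 10.8 to 15.7 CPM with saline (0.50 ± 0.17). The other was the metalloproteinase gene MMP19, at 61.3 to 68.4 CPM with rhAgrin and at 107, 61.9 and 102 CPM with saline (-0.46 ± 0.15, and -0.64 without animal 573). Of 20 genes of growth factors and their receptors tested, 12 estimates were below 0 and the median was -0.06. The 1 whose groups did not overlap (1.26% of all genes in that direction) was PDGFC, a ligand of the PDGF receptor alpha on fibroblasts. It was at 13.2, 13.2, 12.4 and 11.4 CPM against 7.19, 7.29 and 10.3 CPM (0.63 ± 0.18). PDGFRA gave 0.04 ± 0.20.

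Most macrophage genes had estimates below 0, with animal 571 the highest library on the mean log2 level. By summed CPM of the study's macrophage signature, saline animal 575 (42621) and rhAgrin animal 576 (34105) were above animal 571 (33556). Of 72 genes of the study's macrophage signature, 57 estimates were below 0, 0 were at an unadjusted p under 0.05 and 61 intervals lay within 2-fold. The median was -0.15, and it was 0.02 without saline animal 571 and -0.245 without saline animal 573. CSF1R, the receptor that macrophages need to survive, was at 750, 838, 711 and 743 CPM with rhAgrin and at 1175, 623 and 806 CPM with saline (-0.15 ± 0.19). Saline libraries lay both above and below the 4 rhAgrin libraries. CD68, a lysosomal macrophage protein, was at 150 to 195 CPM against 295, 168 and 165 CPM (-0.30 ± 0.20), with animal 571 above the rhAgrin range and the other saline animals inside it. In bulk RNA, fewer cells of a type and less RNA per cell cannot be told apart. Resident macrophage genes had a median of -0.31 over 14 genes, 12 below 0, and lipid-associated and phagocytic genes a median of -0.21 over 19 genes, 15 below 0. Without animal 571 these medians were -0.07 and 0.01, and without animal 573 they were -0.29 and -0.31. CX3CR1, the fractalkine receptor, was at 11.2, 9.004, 18.8 and 18.8 CPM with rhAgrin and at 41.7, 7.51 and 34.0 CPM with saline. Its log2 fold change was -0.90 ± 0.49, and -1.33 without animal 573, when DESeq2 called it among 9 genes.

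A few myeloid genes had groups that did not overlap, and none passed adjustment. HMOX1, heme oxygenase 1, which degrades the heme of lost red cells, was at 386, 433, 521 and 344 CPM with rhAgrin and at 989, 524 and 546 CPM with saline. The 7 values did not overlap, but the gap lay between 521 and 524 CPM. The log2 fold change was -0.67 ± 0.23 (-0.36 without animal 571 and -0.79 without animal 573). S100A8 and S100A12, calcium-binding alarmins of neutrophils and monocytes that lie near each other on chromosome 4, were both lower in each rhAgrin library. S100A12 was at 6.50, 20.8, 19.5 and 14.9 CPM against 35.9, 23.1 and 28.1 CPM (-0.88 ± 0.34), and S100A8 at 1.66, 6.46, 8.01 and 5.99 CPM against 9.67, 9.20 and 10.2 CPM (-0.80 ± 0.41). Of 8 neutrophil genes tested the other 6 overlapped between groups and the median was -0.03. Of all genes, 1.44% had groups that did not overlap in that direction. TCN1, a vitamin B12-binding protein of neutrophil granules, was highest in animal 577 at 296 CPM and gave 1.22 ± 0.74 (0.43 without animal 577 and 1.93 without animal 571). ACP5, the tartrate-resistant acid phosphatase of osteoclasts and activated macrophages, was at 138, 407, 652 and 367 CPM against 650, 703 and 869 CPM (-0.92 ± 0.42), with an overlap of animal 576 and animal 571 alone. Of 12 osteoclast-like genes, 10 estimates were below 0, with a median of -0.15.

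Lymphocyte and chemokine genes gave no group difference that passed adjustment. IL7R, the interleukin 7 receptor of lymphocytes, was at 1.81 to 9.18 CPM with rhAgrin and at 16.5, 6.10 and 18.5 CPM with saline (-1.06 ± 0.51). The cytotoxic cell gene NKG7 was at 98.2 to 117 CPM against 95.4 to 133 CPM and gave -0.02 ± 0.12, an interval of -0.30 to 0.27. TNFRSF17, the plasma cell receptor BCMA, gave -1.62 ± 0.57 at low level, with 0.101 to 0.489 CPM against 0.435 to 1.90 CPM. JCHAIN, of the antibody joining chain, was at 156 CPM in saline animal 571 and at 22.8 to 68.4 CPM in the other 6 libraries. Of 24 cytokine and chemokine genes, 1 was at an unadjusted p under 0.05 and did not overlap (0.601% and 1.44% of all genes in that direction). It was CCL21, a chemokine of lymphatic vessels, at 39.9, 54.8, 54.6 and 40.1 CPM against 69.0, 74.5 and 67.0 CPM (-0.55 ± 0.16). Of 8 lymphatic endothelial genes, CCL21 among them, 7 estimates were below 0 and the median was -0.35, and it ranged from -0.55 to -0.28 with 1 library left out. CCL2, the main monocyte chemokine, gave 0.08 ± 0.66 with an interval of -1.46 to 1.62, which leaves a difference of over 2-fold in either direction possible.

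Interferon response genes, which cells switch on after sensing interferon or foreign nucleic acid, had the most members at an unadjusted p under 0.05 of all lists. Of 42 tested, 7 were there (background 0.923% in that direction), all higher with rhAgrin, 39 estimates were above 0 and the median was 0.40 against 0.01 for all genes. None had groups that did not overlap, and none passed adjustment. The lists differ in size and were chosen with earlier results of these data known, so this rank among them is no support. IFI6, a membrane protein induced by type I interferon, was at 76.2, 41.0, 134 and 159 CPM with rhAgrin and at 45.1, 43.7 and 45.3 CPM with saline, a log2 fold change of 1.19 ± 0.39. The 3 saline libraries sat close together, animals 576, 577 and 570 lay above them, and animal 572 lay below. IRF7, the master regulator of interferon genes, was at 24.8, 13.9, 27.3 and 42.4 CPM against 16.5, 11.1 and 15.4 CPM (0.93 ± 0.31). OAS1, which makes the activator of RNase L, was at 8.27, 4.31, 12.6 and 19.5 CPM against 4.38, 4.74 and 4.94 CPM (1.25 ± 0.43). USP18, which removes ISG15 from proteins, gave 0.78 ± 0.27, ISG15 itself 1.02 ± 0.46 and the antiviral GTPase gene MX1 0.77 ± 0.36.

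The same 2 animals stood at the ends of the interferon genes. On the mean log2 level of the 42 genes, animals 577 and 576 lay 0.64 and 0.37 above the mean of the 7 libraries, and rhAgrin animal 572 was at -0.40, next to saline animal 573 at -0.46. The median was 0.27 without animal 577, 0.285 without animal 573 and 0.51 without animal 572, and it kept its sign without each of the 7 libraries. Without animal 572, 22 of the 42 genes were at an unadjusted p under 0.05 (2.26% of all genes), and DESeq2 called IRF7, IFI6, OAS1 and DDX60 among 12 genes. Without animal 573, 3 of the 42 were there (5.05% of all genes), and without animal 576 also 3 of the 42 (1.31% of all genes). The remote zones of the same animals showed a like order: IFI6 was at 95.9 and 123 CPM in the remote zones of animals 576 and 577 and at 37.6 to 60.4 CPM in the other 5. Against the own remote zone the list's median difference between treatments was 0.21. DDX60, a helicase that aids the sensing of viral RNA and was not on the list, had the smallest p among genes higher with rhAgrin. It was at 5.62, 2.54, 8.47 and 10.025 CPM against 2.08, 2.01 and 2.39 CPM, did not overlap and gave 1.63 ± 0.41, again with animal 572 lowest of its group.

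**Figure D3:**
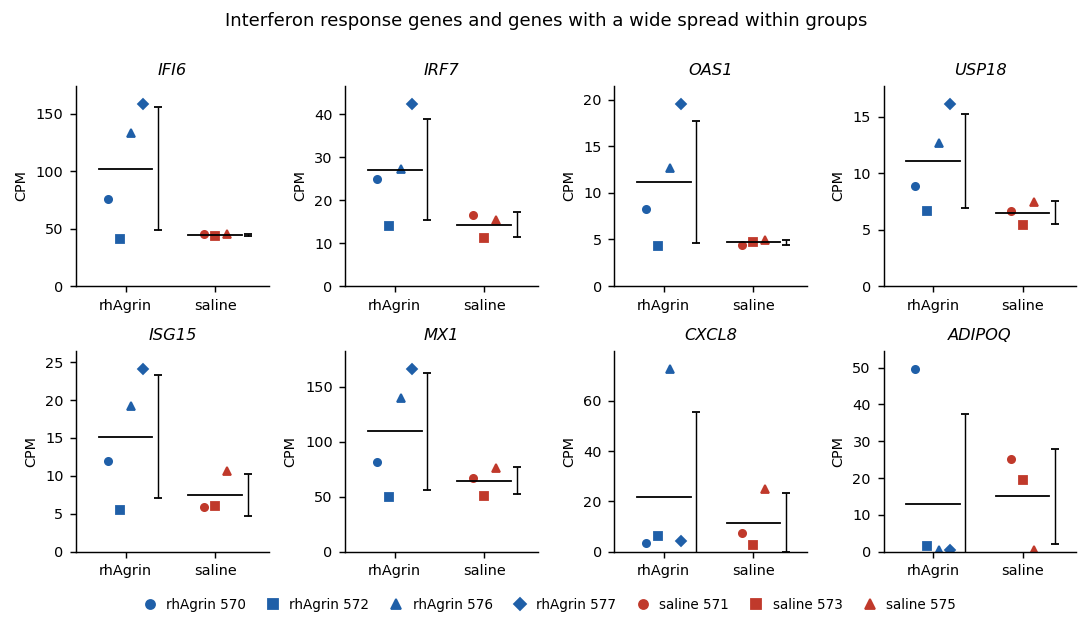
CPM of 6 interferon response genes and of 2 genes with a wide spread within groups, 1 point per animal, with the mean (line) and SD (bar, cut at 0). In the interferon genes animals 576 and 577 were highest and animal 572 lay among or below the saline animals, and CXCL8 and ADIPOQ were each high in single animals.

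Promoters of this list are shown because its members leaned together. The element through which interferon is known to switch on such genes holds the letters GAAANNGAAA, and these were searched on both strands in the 250 bases before the RefSeq start of each protein-coding gene (Sscrofa11.1). The letters were in 17 of the 38 interferon promoters that could be read (44.7%) and in 585 of 19531 promoters overall (3%). The median log2 fold change was 0.41 for the 17 genes with a match and 0.36 for the 21 without, and -0.00 for all 297 tested genes whose promoter held a match. A match is a description and not a shown binding site. IFI6 is printed as the matched gene with the smallest p and ISG15 as the namesake of the pathway, 5′ to 3′ on the gene's strand, in lower case with each match in capitals (GAAANNGAAA, or TTTCNNTTTC where it is on the other strand).
IFI6 (chr6:84858073-84858322, minus strand): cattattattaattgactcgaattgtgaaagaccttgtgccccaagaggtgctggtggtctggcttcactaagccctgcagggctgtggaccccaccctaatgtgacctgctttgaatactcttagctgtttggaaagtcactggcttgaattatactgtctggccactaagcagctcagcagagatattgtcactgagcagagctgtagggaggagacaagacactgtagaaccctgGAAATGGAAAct
ISG15 (chr6:63362951-63363200, plus strand): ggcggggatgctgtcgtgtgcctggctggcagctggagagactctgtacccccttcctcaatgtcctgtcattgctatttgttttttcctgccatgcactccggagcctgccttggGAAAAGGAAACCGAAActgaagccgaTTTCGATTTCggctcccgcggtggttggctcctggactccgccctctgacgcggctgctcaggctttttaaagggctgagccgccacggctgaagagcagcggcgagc
IFI6 has 1 match, whose first base is 12 bases before the start, and ISG15 has 3, of which a pair overlaps. ISG15 and AGRN are neighbors on chromosome 6 of this assembly, both on the plus strand and 1805 bases apart, with ISG15 at 63363201-63364211 and AGRN at 63366017-63398311. Their levels did not follow each other: animal 572 had the highest AGRN and the lowest ISG15 of the 7 libraries.

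Cardiomyocyte genes varied widely among infarct pieces in both groups. Of 19 sarcomere genes, 18 estimates were above 0 and the median was 0.42, but 0 were at an unadjusted p under 0.05 and 0 intervals lay within 2-fold. MYH7 was at 5937, 9586, 7542 and 5928 CPM with rhAgrin and at 2157, 13529 and 4829 CPM with saline (0.06 ± 0.58, and 1.12 without animal 573). Saline animals held both the highest and the lowest value. Skeletal actin (ACTA1) varied little within rhAgrin, at 8376 to 8787 CPM, and from 2148 to 12346 CPM within saline. CKM, muscle creatine kinase, gave 1.28 ± 0.73 (2.13 without animal 573), at 460, 1172, 511 and 283 CPM against 61.9, 455 and 230 CPM. The sarcomere median was 0.06 without animal 571 and 1.12 without animal 573. ATP2A2, which encodes the cardiac calcium pump SERCA2, gave 0.44 ± 0.38. All 17 calcium handling and ion channel genes had estimates above 0, with a median of 0.39 (0.04 without animal 571 and 0.75 without animal 573).

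Mitochondrial transcripts followed the sarcomere genes by animal. All 13 genes of the mitochondrial genome had estimates above 0, with a median of 0.28, and ATP8, of the ATP synthase, gave 0.40 ± 0.21 with overlapping groups. Nuclear genes of oxidative phosphorylation gave a median of 0.09, with 19 of 19 intervals within 2-fold. How much surviving muscle each dissected piece held was not measured, and its part in these medians was not tested. The share of mitochondrial counts was highest in animal 572 (10.56%) and lowest in animal 571 (5.783%), the same animals that were at the top and the bottom of the sarcomere list.

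**Figure D4:**
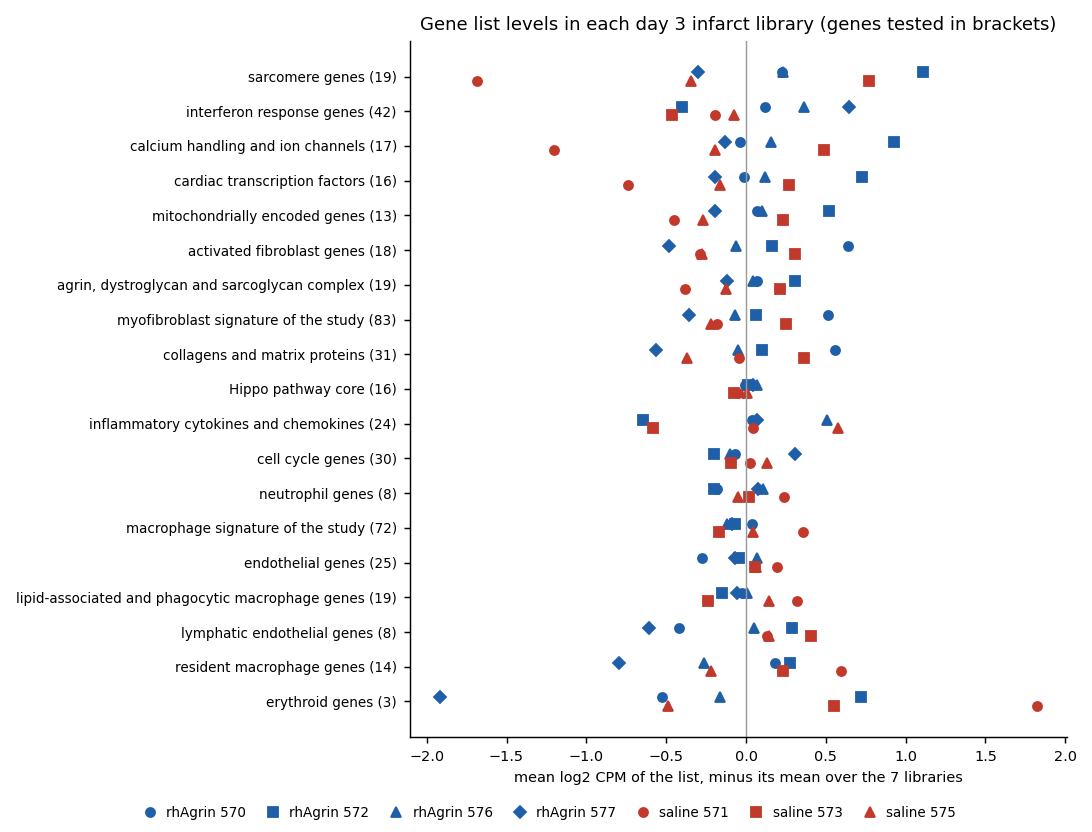
Mean log2 CPM of 19 gene lists in each of the 7 day 3 infarct libraries, as the difference from the mean of the 7 libraries, with rhAgrin in blue and saline in red. The groups overlap in each list shown, sarcomere genes run from animal 571 (lowest) to animal 572 (highest), and interferon genes from animal 573 to animal 577.

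Endothelial genes and the genes of pericytes and smooth muscle leaned in opposite directions. Of 25 endothelial genes, 22 estimates were below 0, 0 were at an unadjusted p under 0.05 and 20 intervals lay within 2-fold, with a median of -0.17 that stayed between -0.22 and -0.09 with 1 library left out. Of 12 pericyte and smooth muscle genes, 11 estimates were above 0, 0 were at an unadjusted p under 0.05 and 7 intervals lay within 2-fold, with a median of 0.12 (0.05 to 0.28 with 1 library left out). This list, which includes DES, had its lowest summed CPM in animal 571 (2661) and its highest in animal 573 (8884). The sarcomere list had the same order at its ends (5081 and 27587), and whether heart muscle content enters the lean was not tested. PECAM1, an endothelial adhesion molecule, gave -0.17 ± 0.15, and CDH5, the cadherin of endothelial junctions, was at 134, 228, 218 and 236 CPM against 295, 216 and 260 CPM (-0.31 ± 0.18). HBB, beta globin, a marker of red cells and their precursors, was at 90.6, 230, 137 and 37.9 CPM against 581, 201 and 125 CPM (-1.22 ± 0.66). Animal 571 was far above the rest, and the HBB log2 fold change was -0.41 without animal 571 and -1.40 without animal 573. Fat-cell genes were carried by single pieces: ADIPOQ, the adipocyte hormone adiponectin, was at 49.5, 1.52, 0.456 and 0.371 CPM with rhAgrin and at 25.0, 19.6 and 0.299 CPM with saline.

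All 30 cell cycle genes tested, which mark proliferation, had an interval within 2-fold, 0 were at an unadjusted p under 0.05, and the median was -0.01. TOP2A, the topoisomerase of dividing cells, was at 87.8, 94.3, 107 and 130 CPM with rhAgrin and at 130, 92.7 and 123 CPM with saline (-0.11 ± 0.13, an interval of -0.42 to 0.19). CCND1, cyclin D1, gave 0.23 ± 0.19. Of 14 hypoxia genes 13 intervals lay within 2-fold with a median of -0.00, and of 13 apoptosis and senescence genes 11 did, with a median of 0.03. Immediate early genes, induced within minutes of a stimulus, were less certain: 10 of 19 intervals lay within 2-fold, and FOSB was at 234, 8.66, 31.5 and 13.4 CPM against 49.1, 9.25 and 146 CPM.

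Among all named genes with a highest count above 30, the 10 with the smallest p that were higher with rhAgrin were DDX60, ACAD10, RAB3A, PPM1K, CNTN3, PDGFC, ALS2CL, ARFGEF3, FAM167A and MTUS2. The groups of each did not overlap (1.26% of all genes in that direction), which follows largely from the choice by smallest p in these libraries. PPM1K, a mitochondrial phosphatase that activates the breakdown of branched-chain amino acids, was at 22.8, 26.4, 28.8 and 24.7 CPM against 16.8, 19.6 and 18.6 CPM (0.50 ± 0.14), and ACAD10, a member of the acyl-CoA dehydrogenase family, at 16.4 to 19.9 CPM against 10.5 to 13.8 CPM (0.58 ± 0.16). RAB3A, a small GTPase of vesicle release, gave 0.70 ± 0.19. The cell adhesion gene CNTN3 was at 4.50 to 5.53 CPM against 2.24 to 3.65 CPM. ARFGEF3 and FAM167A had wide gaps between the groups at low level, FAM167A with 1.42, 1.42, 1.78 and 1.81 CPM against 0.904, 0.925 and 0.798 CPM (0.89 ± 0.25). PPP1R9A and SPOCK3 completed the 5 genes with the widest gap in that direction.

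In the other direction the 10 genes were SLPI, ARNT, ALDH2, SLC35F2, CHST11, CCL21, CDK8, CD40, SLC16A13 and NAAA. ARNT, the partner of hypoxia-inducible factors and of the aryl hydrocarbon receptor, was at 93.1, 123, 121 and 98.4 CPM with rhAgrin and at 144, 160 and 176 CPM with saline (-0.54 ± 0.15). ALDH2, the mitochondrial aldehyde dehydrogenase, was at 136, 123, 129 and 132 CPM against 196, 153 and 162 CPM (-0.36 ± 0.10). CD40, the costimulatory receptor of antigen-presenting cells, was at 15.9 to 20.1 CPM against 20.5 to 28.7 CPM (-0.45 ± 0.14). CDK8, a kinase of the Mediator complex, was at 26.0 to 28.5 CPM against 32.9 to 36.5 CPM, and gave -0.32 ± 0.10. The lectin-like gene CLEC2B, LYSMD2, S100A8, SLC35F2 and SLPI had the widest gaps. Of these 10 genes, SLPI alone had a fitted change of 2-fold or more. None of the 20 genes passed adjustment in edgeR.

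Several of the widest spreads were within groups. Among genes with a mean of at least 10 CPM, the 10 with the largest SD within groups were ZFY, ADIPOQ, XDH, FOSB, CAPN6, CXCL8, MYOM2, AGT, CCK and PTX3. ZFY is Y-linked and was present or absent by animal. It had 0 counts in the infarct libraries of animals 570, 577 and 571 and 328 to 510 counts in those of animals 572, 576, 573 and 575. CXCL8, the neutrophil chemokine interleukin 8, was at 3.37, 6.21, 72.6 and 4.18 CPM with rhAgrin and at 7.32, 2.61 and 24.7 CPM with saline. MYOM2, an M-band protein of the sarcomere, was at 40.8, 266, 34.5 and 19.3 CPM against 7.05, 65.5 and 15.6 CPM. AGT, angiotensinogen, was at 17.4 and 18.8 CPM in animals 570 and 572 and at 2.79 and 2.78 CPM in animals 576 and 577, and saline split alike with 22.4 CPM in animal 573 and 2.14 CPM in animal 575. PTX3, an acute-phase pentraxin, ran from 8.62 to 69.7 CPM within rhAgrin and from 5.39 to 41.2 CPM within saline.

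Each infarct was also set against the remote zone of the same animal, in a fit of the 14 day 3 libraries with animal as a block. Again edgeR called 0 of 14810 genes (0%), and 406 (2.74%) were at an unadjusted p under 0.05. HBB was 1 of them. It was lower in the infarct than in the own remote zone of all 4 rhAgrin animals, with differences of -191.8 to -13.9 CPM, and higher in all 3 saline animals, with differences of 48.9 to 492.7 CPM. The difference between treatments was -2.19 ± 0.48 on the log2 scale. DESeq2 with the same block called HBB alone (adjusted p = 0.0174). Both zones of animal 573 enter this fit although Y-linked counts were found in its infarct library and none in its remote library. This pair of libraries is therefore not matched in sex, and how this came about was not tested. Without animal 573 the HBB difference was -2.50 ± 0.52, and DESeq2 called HBB (adjusted p = 0.00124) among 4 genes, with ITIH4, ATP1B4 and PLIN5. Without animal 571 the HBB difference was -1.59 ± 0.27. COL3A1 gave 0.86 ± 0.27 in this fit, with remote levels of 1095 to 2786 CPM in rhAgrin animals and 2881 to 6091 CPM in saline animals, and LOX, the collagen crosslinking enzyme lysyl oxidase, gave 0.95 ± 0.25. Without animal 573 these were 0.79 ± 0.32 and 0.84 ± 0.29. The infarct-zone values of COL3A1 and LOX themselves differed by 0.07 ± 0.37 and 0.23 ± 0.23.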

How the data were processed

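The deposited tables hold raw counts per gene, which the authors made by trimming with cutadapt, aligning to Sscrofa11 with STAR 2.7.3a, removing duplicates by molecular identifier with Picard 2.22.4 and counting uniquely mapped reads with HTSeq (bcl2fastq 2.20.0.422 and DESeq2 1.26.0 are also listed). Such counts are of molecules as far as the identifiers allow. The deposited normalized tables were scaled within a treatment and day and were not used. The counts of the 7 libraries were scaled jointly by trimmed mean of M-values and fitted without a block in edgeR 4.0.16 (R 4.3.3, robust quasi-likelihood, filterByExpr), and 14307 genes passed. Calls needed an adjusted p under 0.05, 2-fold and a highest count above 30, as in the study's methods. SE is the absolute log2 fold change over the root of the F statistic, and non-overlap was judged on scaled log2 CPM with a prior count of 2. limma 3.58.1 (voom) and DESeq2 1.42.0 served as alternatives. The fit was checked on simulated data. There the call rule found 29 of 100 true effects of 2-fold, and 51% of them had an adjusted p under 0.05. At 4-fold it found 93 of 100. A count of 0 called genes therefore leaves room for missed differences of about 2-fold. Zones were paired by the animal numbers of the labels. The deviations of an animal's zones correlated at 0.119 to 0.361 in all 7 animals (0.211 in animal 573), so the fit against the remote zone kept the block. Animal 573 was kept in it although its zones disagree in Y-linked genes. The members and the 60 gene lists were chosen with earlier results of these data known. Named genes were the key genes, the 10 smallest p and 5 widest gaps per direction, up to 4 smallest p and the most counted member per list, the 10 largest within-group SDs and any called gene, of which the text gives a selection. Symbols came with the files or a reference table, and sequences and positions from RefSeq. A result that needs a withheld item is not reported here. The strandedness of counting is not given in the sources used here.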

Additional observations from a re-analysis of the deposited data

Results flagged for a closer look

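Among the 112 genes and 58 lists of the text, 9 genes and 3 lists had 1 rhAgrin library far from the other 3 (Dixon's test for 4 samples, on CPM for genes). Chance trips this test in about 1 of 20 groups of normally distributed values. That rate does not hold here, because some genes were named for their large SD within groups. ADIPOQ, FOSB, MYOM2, CCK and CXCL8 are such genes. Animal 570 was apart for ACTA2 (1189 CPM against 491 to 575 CPM), FOSB (234 CPM against 8.66 to 31.5 CPM), ADIPOQ (49.5 CPM against 0.371 to 1.52 CPM) and PLIN1, which coats fat droplets (20.6 CPM against 0.139 to 1.37 CPM). Animal 572 was apart for CD163 (706 CPM against 159 to 244 CPM), MYOM2 (266 CPM against 19.3 to 40.8 CPM), CCK (75.9 CPM against 5.48 to 13.03 CPM) and CNTN3 (4.50 CPM against 5.43 to 5.53 CPM). Animal 576 was apart for CXCL8 (72.6 CPM against 3.37 to 6.21 CPM).

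Of the lists, animal 572 was low for matrix proteases and inhibitors, at -0.159 from the mean of the 7 libraries on the log2 scale against 0.016 to 0.022. Animal 577 was low for growth factors, at -0.222 against 0.047 to 0.078, and for complement and coagulation, at -0.513 against 0.058 to 0.152.

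HBB and SPOCK3, a secreted proteoglycan, moved in opposite directions against the own remote zone in the treatment groups. HBB was lower in the infarct of all 4 rhAgrin animals and higher in all 3 saline animals, a difference of -2.19 (log2). SPOCK3 was higher by 0.462 to 2.34 CPM in all 4 rhAgrin animals and lower by 0.351 to 1.55 CPM in all 3 saline animals, a difference of 1.52. Without animal 573, whose zones disagree in Y-linked genes, the differences were -2.50 for HBB and 1.66 for SPOCK3. Neither passed adjustment in edgeR (adjusted p = 1.0 for both).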

How the results depend on the processing

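In the infarct zone edgeR called 0 genes with RLE factors, library totals alone, no filter, no mitochondrial genes, no robust fit, adjusted p alone, all 14 infarct libraries or any 1 library left out, and without animals 572 and 573 together. DESeq2 called 1 gene, also on the filtered genes alone (1), and from 0 to 12 genes with 1 library left out (0 without animal 571, 12 without 572, 9 without 573). The DESeq2 fits on filtered genes or without a library, and the pair left out, were chosen after seeing the data. With 1 library left out, edgeR had from 185 genes (without animal 576) to 733 genes (without animal 573) at an unadjusted p under 0.05.

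Against the remote zone, the paired fit with animal as a block called 0 genes, as did the fit with no block (0, with 250 genes at an unadjusted p under 0.05 against 406). DESeq2 with the block called 1, or 4 without animal 573 (chosen after seeing the data), and leaving 1 animal out gave 0 to 3 calls, the 3 being unnamed genes without animal 575. Groups that did not overlap numbered 357, and 583 to 1780 with 1 library left out, since fewer libraries overlap less often.

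Of 111 named genes, 35 were at an unadjusted p under 0.05 and 0 of these changed sign under any alternative, while 38 of the 111 did so with 1 library left out. Many of the 35 were named for a small p or a wide gap in these same libraries. Their kept sign follows largely from that choice and is no support. Of 58 lists 56 kept the sign of their median under both scalings and 21 without each library. The median of all genes was -0.02 under library totals. A gene that was not called is limited by its interval and is not shown to be equal between treatments. Which piece was dissected, the animals' sexes and the infarct sizes were not tested.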
